A study of Homo sapiens with 2 samples.

Results

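The genes described here are 32 protein-coding genes of the tricarboxylic acid (TCA) cycle and of the entry of pyruvate into it, out of 19794 protein-coding genes of the nuclear genome. They were taken by name: the pyruvate carrier, pyruvate carboxylase, the pyruvate dehydrogenase complex with its kinases and phosphatases, the cycle enzymes, 2 malic enzymes and ATP citrate lyase, of which 28 encode mitochondrial and 4 cytosolic proteins. The data were 2 lists of NRF-1 peaks from chromatin immunoprecipitation sequencing (ChIP-seq) by ChIPmentation, in which sequencing adapters are inserted by a transposase into antibody-bound chromatin. Both came from U251, an established human glioblastoma cell line, transfected with siRNA, either the control (siControl) or one directed at AATF (siAATF), and the 2 groups shared the cell line and the NRF-1 antibody. The sample labels name U251, whereas the series' design text names U138. The paper that reported the data also describes the NRF-1 ChIP-seq in U251. There was 1 list per condition. The immunoprecipitation was described as done in duplicate and each label carried replicate number 1, and whether duplicates were pooled was not given in the sources used here. No difference between the lists could therefore be set against a replicate spread, no test was made, and no p-value is given. Loss of AATF itself could not be checked in peak lists, and read depth was unknown.

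In the mitochondrial matrix, the pyruvate dehydrogenase complex turns pyruvate into acetyl-CoA, citrate synthase joins it to oxaloacetate, and the cycle then oxidises citrate back to oxaloacetate while reducing NAD+ and FAD for the respiratory chain. Kinases switch the pyruvate dehydrogenase complex off by phosphorylation and phosphatases switch it on again, so this step sets how much pyruvate is burnt rather than turned into lactate. NRF-1 (nuclear respiratory factor 1) is a transcription factor that binds a GC-rich palindromic sequence as a dimer, and it is known for its sites at promoters of respiratory chain subunits. AATF is a nuclear protein with roles in transcription, ribosome production and survival.

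A promoter was counted as bound when a peak touched the 1 kb on either side of any start of a coding transcript, and a gene with several such peaks was given the one of highest fold enrichment, which is here called its strongest peak. Fold enrichment is the signal of a called peak region over the background of its own library, and −log10 q is the peak caller's significance after correction. As the lists hold broad peaks, both values describe the whole called region and not a summit, and can vary with its width. Because both depend on the library, each peak was given a percentile rank among the peaks called with it, where 0 is the weakest and 100 the strongest, so that 1 rank point equalled about 180 peaks of the 18014 in siControl and 185 peaks of the 18454 in siAATF. The smallest −log10 q in the lists was 1.03 and 1.02, respectively, and paired values are given throughout with siControl first and siAATF second.

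All 32 genes had a promoter peak in both lists (exact binomial 95% interval of the share, 89.1 to 100%). Over all coding genes the share was 61.1% in siControl and 60.7% in siAATF. With peaks of −log10 q of at least 5 alone, 29 of 32 genes (90.6%; 75.0 to 98.0%) were counted in each list, beside 51.5% of all genes in siControl and 51.5% in siAATF. PDK4 and ME3 fell short of that limit in both lists, SUCLG1 in the siControl list only and DLST in the siAATF list only. The strongest peaks of the 2 lists overlapped at all 32 genes, against 98.2% of the coding genes with a peak in both, and the siAATF peak covered a median of 98.0% of the bases of the siControl peak. The intervals treat the genes as independent draws and cover counting error only.

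Sequence was read from the reference under the peaks, since NRF-1 is known by its GC-rich site. A shortened core of 9 bases, GCGCANGCG on either strand, where N is any base, lay in the siControl peak of 6 genes. The 29 bases around it, on the strand of each gene and from GRCh37 (hg19), are printed below with the core in capitals, because these 6 promoters were among the most significant of the set. The MPC2 window, at chr1:167905391-167905419, lay 905 bp after the canonical start in intron 1. The PDHB window, at chr3:58419266-58419294, lay 279 bp after the start in intron 2, and the PDP2 window, at chr16:66914481-66914509, lay 77 bp after the start in exon 1. The IDH3A window, at chr15:78441685-78441713, and the IDH3G window, at chrX:153059873-153059901, had their centres 5 and 57 bp before the start. The ACLY window, at chr17:40086790-40086818, lay 11.6 kb before the canonical start, in a peak at another ACLY start that also touched the promoter of ODAD4.
MPC2: agctcggcctGCGCAAGCGcgctgccagc
PDHB: gccggagtcgCGCCTGCGCtgtggccttc
PDP2: gtggcactgtGCGCAGGCGctgaactgac
IDH3A: gtggggtgggCGCTTGCGCactgccgctg
IDH3G: tgcgaccgcgCGCGTGCGCagtaccgggt
ACLY: tgccggcgtgCGCTTGCGCcagttctgcc

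DLD, the most significant of the 32, lacked the 9-base core. It held the 8 bases GCGCANGC, which are contained in every 9-base core, at chr7:107531607-107531614, centred 18 bp before its start. The printed DLD window is chr7:107531596-107531624. SUCLA2 is printed at its canonical start, in a peak that was not its strongest. The 9-base core lay there at chr13:48575438-48575446, centred 33 bp before the start, and the printed window is chr13:48575428-48575456. All 8 printed sites also lay inside the siAATF peak. Capitals mark the 8 bases in DLD and the 9 bases in SUCLA2.
DLD: gctgcgcctgtGCATGCGCagggagggga
SUCLA2 canonical start: gtcgcctgtgCGCCTGCGCgcggcgccga

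The core was found in 6 of 32 genes (18.8%; 7.21 to 36.4%) in each list, beside 26.3% of all coding genes with a promoter peak, so its share was not above that of bound promoters in general. The letters GCGCATGCG, without a free base, were in none of the 32 peaks (95% upper limit of the share, 10.9%), beside 6.17% of all in the siControl list. The 8-base sequence was in 13 of 32 (40.6%), beside 43.2% of all in the siControl list. These were the 6 above and DLAT, DLD, IDH3B, SUCLG2, SUCLA2, FH and MDH1. In RefSeq promoters of fixed length (250 bases before to 50 after the start, GRCh38.p14), in which 30 of the 32 genes were matched, the 9-base core was in 4 (13.3%; MPC2, IDH3A, IDH3G and SUCLA2), beside 11.1% of 15281 promoters. A match describes letters of the reference and shows no binding by itself.

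The 6 genes with the core ranked at 86.9 to 96.8 by −log10 q in siControl and at 88.9 to 97.7 in siAATF. The other 26 genes spread from 9.07 to 98.4 in the siControl list, with a median of 63.0 against 91.2 for the 6. Among genes ranked at 90 or above, 4 of 5 of the set held the core in the siControl list (80%; 28.4 to 99.5%). The share of all coding genes at that rank was 80.5%, so the 5 genes were close to bound promoters at large. The medians of genes with and without the core were not computed over all coding genes.

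**Figure D1:**
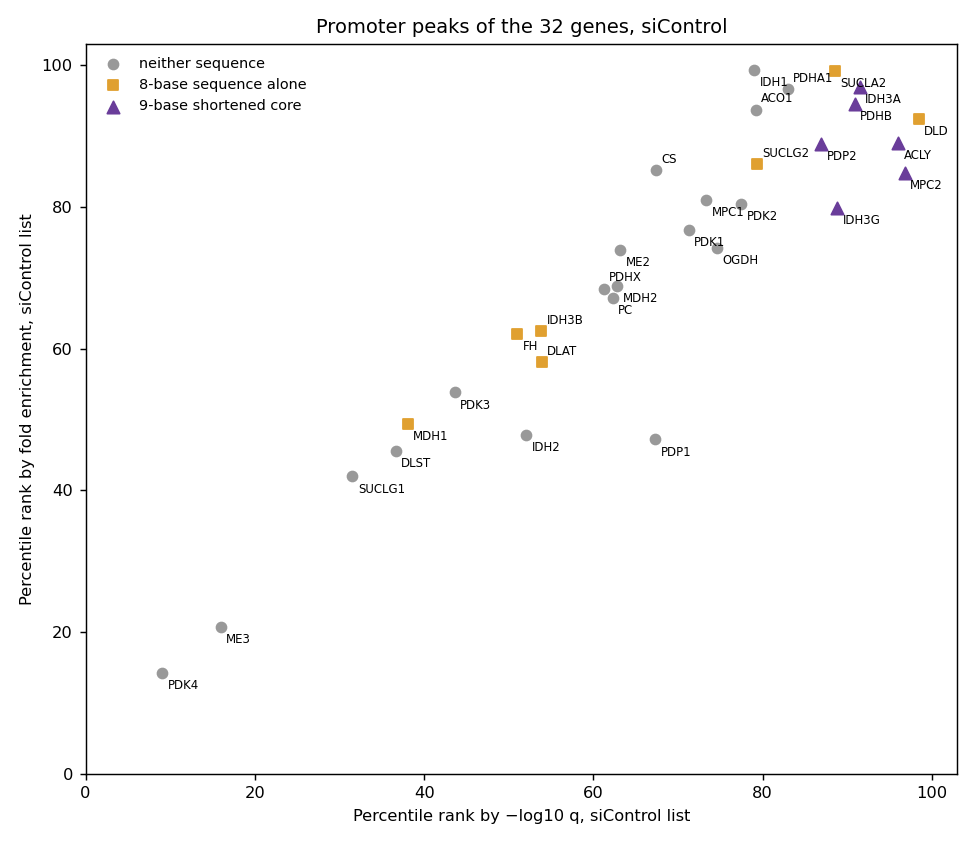
Percentile rank by fold enrichment (vertical axis) against percentile rank by −log10 q (horizontal axis) of each gene's strongest promoter peak in the siControl list, with 1 point per gene and symbols for the sequences found in the peak. The 6 genes with the 9-base core sit between 86.9 and 96.8 on the horizontal axis, DLD with the 8-base sequence alone lies furthest right at 98.4, and PDK4 and ME3 lie at the lower left.

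As a set, the 32 genes had a median rank by fold enrichment of 75.5 in siControl and 76.7 in siAATF, beside 63.4 and 64.4 for all coding genes with a promoter peak. By −log10 q the medians were closer, at 69.3 and 71.2 beside 65.0 and 66.1. The median fold enrichment was 7.66 and 7.34, beside 6.74 and 6.49.

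Pyruvate enters the matrix through the carrier formed by MPC1 and MPC2. MPC2 had a fold enrichment of 8.37 in siControl and 7.67 in siAATF, with −log10 q of 81.2 and 69.0. Its peak began after the canonical start and also touched the promoter of DCAF6, a neighbouring gene. MPC1 had 8.06 and 7.20, with −log10 q of 26.4 and 23.4. By fold enrichment both genes ranked at 74.7 to 84.8, above the medians of all coding genes with a promoter peak, 63.4 and 64.4. The lowest of these ranks, MPC1 in siAATF, lay below the median of the 32 genes in that list, 76.7. PC, pyruvate carboxylase, which makes oxaloacetate from pyruvate, ranked at 67.2 and 69.2.

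The 5 genes of the pyruvate dehydrogenase complex ranked from 58.2 to 96.6 by fold enrichment in the siControl list. PDHA1, the alpha subunit of the decarboxylating enzyme, had fold enrichments of 9.71 and 8.88 in the siControl and siAATF lists and ranked at 96.6 and 94.8. PDHB, its beta subunit, had 9.40 and 8.50 and ranked at 94.6 and 91.6. DLD, the dihydrolipoamide dehydrogenase that this complex shares with the oxoglutarate dehydrogenase complex and other matrix complexes, had 9.13 and 8.55. Its −log10 q of 87.9 and 78.2 was the highest among the 32 genes in both lists, at ranks of 98.4 and 98.2. The acetyltransferase gene DLAT ranked much lower by fold enrichment, at 58.2 and 59.4. PDHX, which anchors DLD in the complex, ranked at 68.5 and 68.3 in a peak that also touched the promoter of APIP.

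The regulators of the complex held the lowest value of the set. PDK4, a kinase known to be induced by fasting and fatty acids, had a fold enrichment of 3.86 in siControl and 3.73 in siAATF, with −log10 q of 2.21 and 2.01, and ranked at 14.3 and 12.7. The other kinases ranked higher in both lists. PDK1, a known target of hypoxia signalling, ranked at 76.7 and 75.9. PDK2 ranked at 80.4 and 85.04, and PDK3 at 53.8 and 70.2. Of the phosphatases, PDP2 had fold enrichments of 8.73 and 9.18 and ranked at 88.9 and 96.6. PDP1 ranked at 47.2 and 47.4 by fold enrichment but at 67.3 and 70.5 by −log10 q, and it had the widest peak of the 32, 1522 bp in siControl and 1499 bp in siAATF.

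The 200 bases before the canonical start are printed as examples for DLD, with the highest significance, IDH3A, which was high by both measures, and PDK4, with the lowest rank. They run along the strand of each gene, from chr7:107531428-107531627, chr15:78441504-78441703 and chr7:95225829-95226028 (minus strand for PDK4) of GRCh37, with the 8-base sequence in capitals. All 3 were rich in G and C, with 64.5% in DLD, 73.5% in IDH3A and 62.5% in PDK4, and held 21, 24 and 15 CpG dinucleotides. The 8-base sequence occurred 1 time in DLD and 1 time in IDH3A, and 0 times in PDK4. These 3 were picked by their values and show no relation between sequence and rank. By fold enrichment in siControl, the peaks of PDHA1 and ACO1 lacked the sequence at ranks of 96.6 and 93.7. Those of DLAT and MDH1 held it at 58.2 and 49.4. By −log10 q, 5 of 5 genes ranked at 90 or above held it, beside 91.8% of all coding genes at that rank.
DLD: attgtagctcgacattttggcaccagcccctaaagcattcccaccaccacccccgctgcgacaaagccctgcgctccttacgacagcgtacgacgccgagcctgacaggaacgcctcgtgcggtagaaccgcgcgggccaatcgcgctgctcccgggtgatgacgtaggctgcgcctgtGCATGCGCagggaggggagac
IDH3A: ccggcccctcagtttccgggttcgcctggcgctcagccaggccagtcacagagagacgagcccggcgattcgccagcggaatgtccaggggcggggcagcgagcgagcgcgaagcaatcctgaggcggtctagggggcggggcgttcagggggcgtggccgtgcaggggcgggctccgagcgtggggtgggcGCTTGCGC
PDK4: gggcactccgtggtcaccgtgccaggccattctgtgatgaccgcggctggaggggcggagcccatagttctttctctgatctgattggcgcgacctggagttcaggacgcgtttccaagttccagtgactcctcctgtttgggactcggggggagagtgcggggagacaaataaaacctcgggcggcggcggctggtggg

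Citrate synthase, CS, which starts the cycle, had fold enrichments of 8.40 and 7.37 and ranked at 85.2 and 77.1. ACO1, which isomerises citrate in the cytosol and also acts as an iron-responsive RNA-binding protein, ranked at 93.7 and 88.2.

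The subunits of the NAD-dependent isocitrate dehydrogenase, the form that works in the cycle, did not share one level. The catalytic subunit IDH3A had fold enrichments of 9.80 in siControl and 8.61 in siAATF, with −log10 q of 66.6 and 55.3, and ranked at 96.9 and 92.6. IDH3G had 7.98 and 7.89, with −log10 q of 59.4 and 53.6, in a peak that also touched the promoter of SSR4. IDH3B was lower, with 6.68 and 7.32 and with −log10 q of 11.4 and 16.6. In the siControl list the 3 subunits of this enzyme thus spanned 62.4 to 96.9 in rank.

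OGDH and DLST encode further subunits of the oxoglutarate dehydrogenase complex, which shares DLD. OGDH had fold enrichments of 7.56 and 6.99 and ranked at 74.2 and 71.9. DLST had 5.53 and 4.75, with −log10 q of 5.97 and 3.95. The succinyl-CoA ligase genes were as uneven. SUCLG1, the alpha subunit found in both forms of the enzyme, had 5.29 and 6.23 and ranked at 41.96 and 60.5. SUCLG2, the beta subunit of the GTP-forming enzyme, ranked at 86.1 and 89.98. SUCLA2, the beta subunit of the ATP-forming enzyme, ranked at 83.5 and 82.1 at its canonical start, with −log10 q of 71.8 and 65.6.

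FH, fumarase, had fold enrichments of 6.65 and 5.63, with −log10 q of 10.2 and 6.53. The mitochondrial malic enzymes, which turn malate into pyruvate, lay far apart. ME2 had 7.54 and 7.81 and ranked at 73.9 and 83.4, whereas ME3 had 4.14 and 4.19, with −log10 q of 2.84 and 2.88, and ranked at 20.7 and 23.4. The ME3 peak did not span its canonical start in either list.

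**Figure D2:**
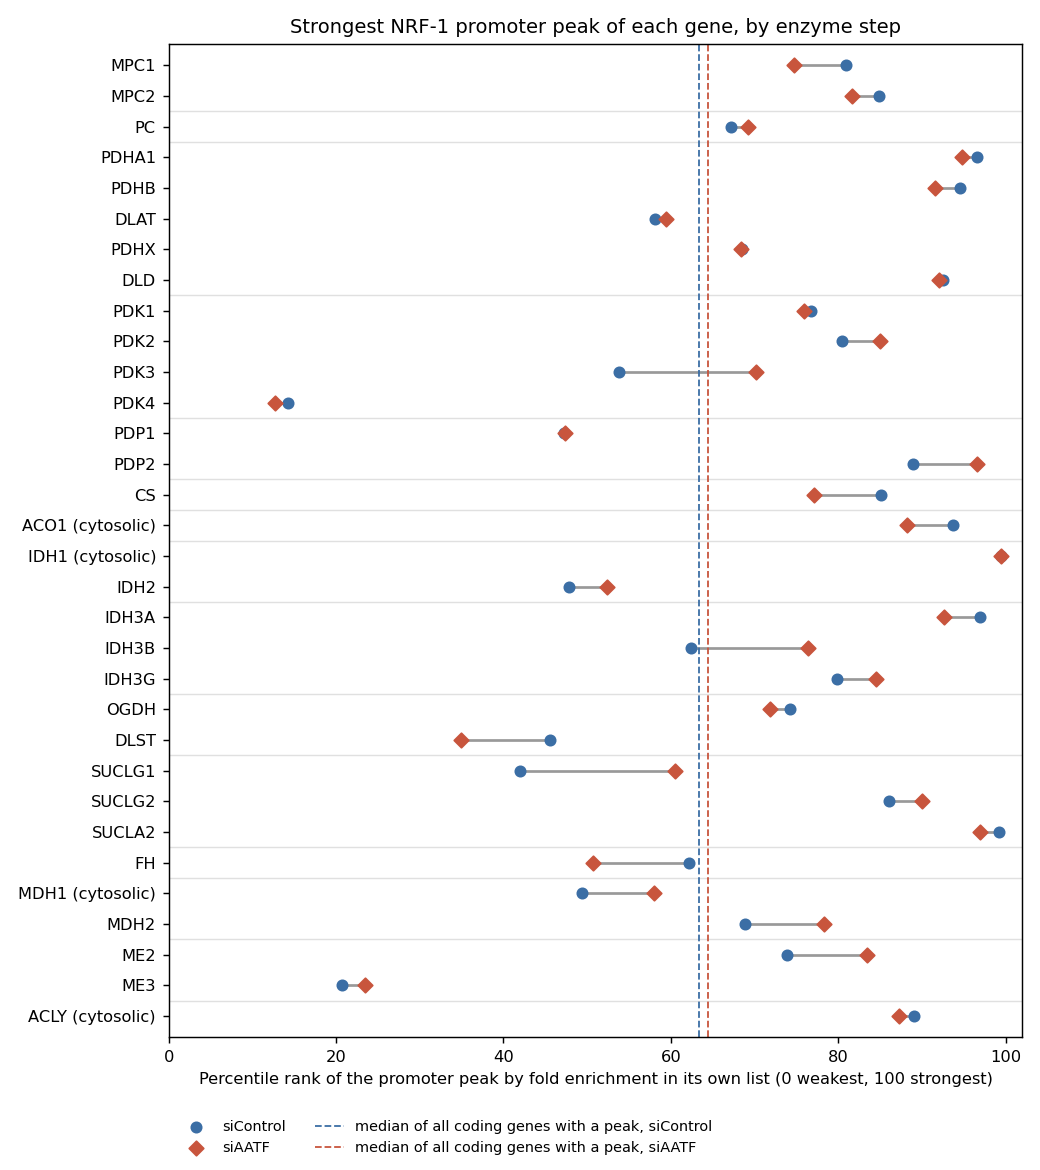
Percentile rank by fold enrichment (horizontal axis, 0 weakest to 100 strongest) of the strongest promoter peak of each gene in the siControl list (circles) and the siAATF list (diamonds), with genes ordered by enzyme step and dashed lines at the medians of all coding genes with a peak, 63.4 and 64.4. PDK4 and ME3 lie far to the left in both lists, and the siControl circle of IDH1, at 99.4, is hidden under its diamond.

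The next comparison set cytosolic against mitochondrial isoenzymes, and its outcome depended on which start stood for a gene. IDH1 encodes the cytosolic NADP-dependent isocitrate dehydrogenase, the form often mutated in glioma, and IDH2 the mitochondrial one. The strongest IDH1 peak had fold enrichments of 10.8 in siControl and 10.2 in siAATF and ranked at 99.4 in both. It lay 11.1 kb upstream of the canonical start and also touched the promoter of PIKFYVE, so its signal could not be assigned to one of the 2 genes. At the canonical start, IDH1 had a separate peak of 4.01 and 4.55, with −log10 q of 2.38 and 3.53, which ranked at 17.6 and 30.9. IDH2, with 5.67 and 5.72, ranked at 47.8 and 52.3. Hence IDH1 ranked above IDH2 by its strongest peak and below it at the canonical start, in both lists.

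Of the malate dehydrogenases, the cytosolic MDH1 had fold enrichments of 5.77 and 6.07 and ranked at 49.4 and 58.0, while the mitochondrial MDH2 had 7.18 and 7.45 and ranked at 68.9 and 78.3. MDH2 ranked above MDH1 in each list. Both peaks also touched another coding promoter, WDPCP for MDH1 and STYXL1 for MDH2. ACLY, the cytosolic lyase that splits exported citrate into acetyl-CoA and oxaloacetate, ranked at 89.0 and 87.2 through the peak shared with ODAD4, and at 45.2 and 35.8 at its canonical start.

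Over all 32 genes, the median rank of the 28 mitochondrial genes was 74.1 in siControl and 76.2 in siAATF, and that of the 4 cytosolic genes was 91.4 and 87.7. With the canonical start alone, the cytosolic medians became 47.3 and 46.9, below the unchanged mitochondrial medians of 74.1 and 76.2. The order by −log10 q turned in the same way, from 79.1 for the cytosolic genes and 67.3 for the mitochondrial genes with the strongest peak to 44.6 and 67.3 at the canonical start in the siControl list.

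**Figure D3:**
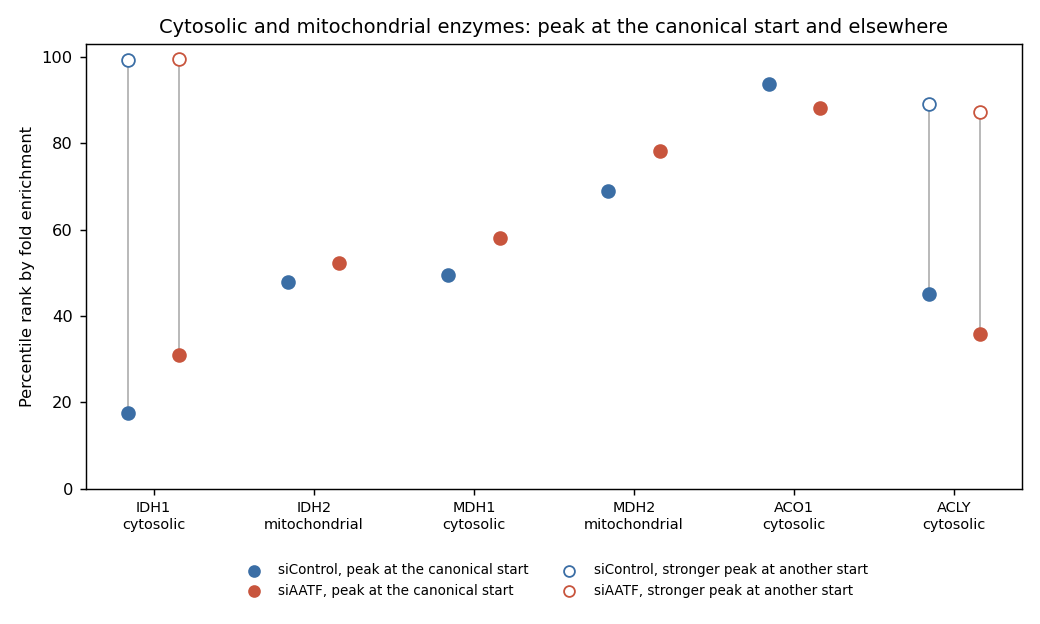
Percentile rank by fold enrichment (vertical axis) of the peak at the canonical start (filled) and of a stronger peak at another start (open), in the siControl list (blue) and the siAATF list (red), for the isoenzyme pairs and the other cytosolic genes, ACO1 and ACLY. The open and filled points of IDH1 lie at 99.4 and 17.6 in the siControl list, which turns its order against IDH2 at 47.8.

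The change of rank from the siControl to the siAATF list was centred near 0. Its median over the 32 genes was −0.0394 points, with a range of −11.5 to 18.6 and an SD of 7.15, beside a median of 0.156 and an SD of 10.3 over the 11774 coding genes with a promoter peak in both lists. In the siAATF list 16 of 32 genes ranked lower, beside 48.9% of all genes, and by −log10 q 13 of 32 ranked lower, beside 44.5% of all. A change over 10 points in either direction was seen at 5 of 32 genes (15.6%; 5.28 to 32.8%), beside 26.1% of all. No gene changed by over 20 points (95% upper limit of the share, 10.9%), beside 6.55% of all. Ranked by −log10 q, 4 of 32 changed by over 10 points, beside 13.1% of all.

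The 5 genes were SUCLG1, PDK3, IDH3B, DLST and FH. SUCLG1 was 18.6 points higher in the siAATF list by fold enrichment and 11.7 points higher by −log10 q, with −log10 q of 4.88 and 7.19. PDK3 was 16.4 points higher by fold enrichment and 7.52 by −log10 q, which stood at 7.66 and 9.61. IDH3B was 13.95 and 11.2 points higher. In the other direction, FH changed by −11.5 points by fold enrichment and −10.3 by −log10 q, and DLST by −10.6 and −10.3. All 5 peaks were narrower in the siAATF list. SUCLG1 had widths of 549 and 496 bp, PDK3 of 796 and 644 bp, and IDH3B of 739 and 656 bp. FH had 817 and 784 bp, and DLST 654 and 492 bp. Narrowing was not confined to these genes. Among the rest, PDP2 (927 and 850 bp) and MDH2 (828 and 761 bp) were also narrower, and MPC1 (874 and 1013 bp) and IDH2 (1046 and 1159 bp) were wider. The share of narrower peaks over all coding genes was not computed, and a link between width and change of rank was not tested. The direction of each change was the same in every processing alternative that gave a value, but several alternatives could hardly differ. Each of the 5 genes had 1 promoter peak, and both flanks, the canonical start and the nearest peak returned the main value. DLST and SUCLG1 had no change under the −log10 q limit.

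These 5 were peaks of low to middle significance, with siControl ranks by −log10 q of 31.5 to 53.8. Below a siControl rank of 50 by −log10 q, 3 of 6 genes changed by over 10 points, beside 43.6% of all coding genes in that range, and at or above it 2 of 26 genes did (7.69%), beside 18.4% of all. The weak peak of IDH1 at its canonical start likewise ranked 13.3 points higher in the siAATF list, while its strongest peak changed by 0.0526 points. The 6 genes with the 9-base core changed by 1.79 to 7.70 points in size. PDP2 had the largest of these, 7.70 points higher in the siAATF list, followed by IDH3G at 4.58 and IDH3A at −4.35 points.

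Among the remaining genes, both malate dehydrogenases ranked higher in the siAATF list by fold enrichment and by −log10 q, MDH1 by 8.57 and 8.16 points and MDH2 by 9.37 and 5.44. The measures differed in direction at 9 of 32 genes, a count whose share over all coding genes was not computed. ME2 changed by 9.45 points by fold enrichment but by −0.498 by −log10 q, and CS by −8.07 and 0.295. The ME2 peak was 846 and 763 bp wide, and the CS peak 648 and 910 bp. MPC1 changed by −6.25 and −0.675, and ACO1 by −5.55 and −2.31. The carrier genes were both lower by fold enrichment in the siAATF list, whereas the pyruvate dehydrogenase complex stayed within −3.01 to 1.28 points.

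**Figure D4:**
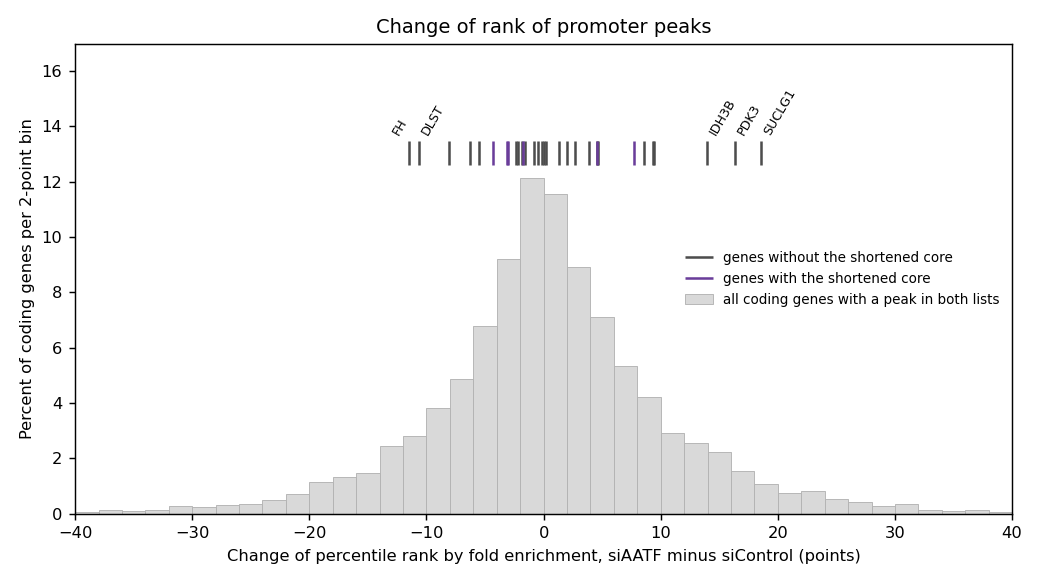
Change of percentile rank by fold enrichment, siAATF minus siControl, in points (horizontal axis), for all coding genes with a promoter peak in both lists (bars, percent of genes per bin of 2 points) and for the 32 genes (ticks, purple for those with the 9-base core). The axis ends at −40 and 40 points, which leaves out 30 of 11774 genes (0.255%), and the 5 named ticks are the genes beyond 10 points.

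In other features the 32 peaks were like promoter peaks at large. Their median width was 866 bp in the siControl list, beside 854 bp for all coding genes with a peak, and their median GC content was 67.3%, beside 67.7%. They held a median of 9.08 CpG dinucleotides per 100 bases, beside 9.22, and their midpoints lay a median of 112 bp from the canonical start, beside 131 bp. The strongest peak spanned the canonical start at 26 of 32 genes in siControl and 27 of 32 in siAATF, beside 83.5% and 84.6% of all. A peak that touched the promoters of at least 2 coding genes stood for 8 of 32 genes (25%), beside 24.7% of all.

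**Figure D5:**
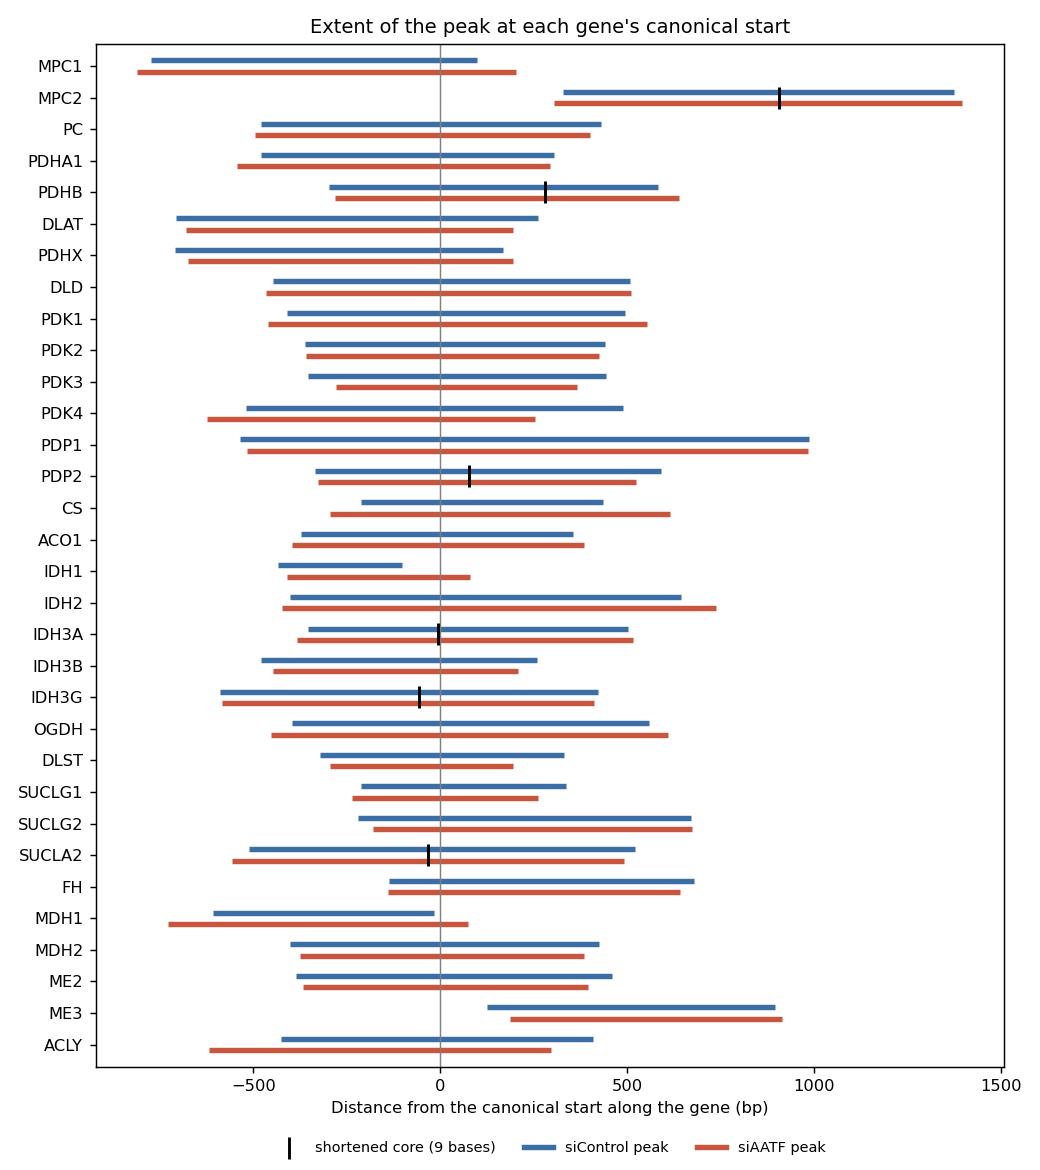
Extent of the peak at or nearest each gene's canonical start in the siControl list (blue) and the siAATF list (red), as distance from that start along the gene in bp (horizontal axis), with black ticks at the 9-base core. For IDH1, SUCLA2 and ACLY the peak at the canonical start is drawn and not the stronger one elsewhere, most bars cross 0, and those of MPC2 and ME3 begin after it in both lists.

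The wider pathway list of 23 further genes (succinate dehydrogenase, lipoylation, glutamate and aspartate metabolism, carriers and related enzymes) had a promoter peak at 21 genes (91.3%; 72.0 to 98.9%) in each list, beside the 61.1% and 60.7% of all coding genes, and at 20 of 23 (87.0%) with −log10 q of at least 5, beside 51.5% of all in each list. The 2 genes without one in either list were ME1, the cytosolic malic enzyme, and PCK1, the cytosolic form of phosphoenolpyruvate carboxykinase. PCK2, its mitochondrial form, ranked at 60.3 and 67.7. Other pairs of this list went either way. Cytosolic GOT1 ranked at 94.0 and 95.7 and mitochondrial GOT2 at 54.9 and 56.1, whereas cytosolic ACSS2 ranked at 26.6 and 25.2 and mitochondrial ACSS1 at 65.1 and 65.2. The strongest peaks of GOT1 and ACSS1 did not span the canonical start.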

How the data were processed

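NRF-1 ChIP-seq was analysed from 1 peak list per condition (siControl and siAATF) in U251 cells. Per the study's methods and the submitters' processing notes, the authors aligned reads to hg19 with Bowtie2 and called broad peaks with MACS2 in a pipeline written for ATAC-seq, at default settings. How that pipeline affected ChIP peaks was not tested, and no input or IgG library was named. The deposited values are fold enrichment, a ratio over the library's own background, −log10 p and −log10 q, and a score that repeats −log10 q. No read counts or depths were given, so values were compared as percentile ranks within a list.

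Promoters were 1 kb either side of any protein-coding transcript start in GENCODE release 44 lifted to GRCh37, with 1 base of overlap sufficing. Python 3.11.15 with numpy 2.4.6, scipy 1.17.1, pandas 2.3.3, pysam 0.24.0 and matplotlib 3.10.9 was used. The scripts were tested on simulated data. Intervals are exact binomial (Clopper-Pearson) at 95%. The named genes are all 32, with ME1 and PCK2 from the pathway list where isoenzymes were compared and other genes only where a promoter peak is shared. PCK1 is also named, because a count of 2 fell outside that rule, and it was chosen after its values were seen. GOT1, GOT2, ACSS1 and ACSS2 were likewise added after their values were seen, to show pairs that went either way. Some values under that rule are not reported here. The genes and lists were chosen with earlier results of these data known. The 8-base sequence was added after the data were seen. Alternatives were promoter flanks of 500 bp and 2 kb, a −log10 q limit, the canonical or nearest start, ranking by −log10 q, a 50% reciprocal overlap and other sequences.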

Additional observations from a re-analysis of the deposited data

How the results depend on the processing

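No paired analysis was possible because siControl and siAATF each had 1 list. With 1 list each and unknown depth, a change of rank has no error of its own, and differences of a few points cannot be set against any spread. Of 71 recomputed summary values, 58 stayed within a tolerance, 10 moved beyond it and 3 turned. The tolerance was a factor of 1.5 for counts, the order-statistic 95% interval for medians, and the whole range for the 4 cytosolic genes, so that the shift of their siControl median from 91.4 to 79.1 by −log10 q lay within it. With peaks of −log10 q of at least 5 alone, which leaves 29 genes, the siAATF median rank was 67.5 and that of the mitochondrial genes 65.7. Weaker peaks were removed before ranking, so these ranks lie on a shorter list and are not on the scale of the main ranks. The median over all coding genes under that limit was not computed. The cytosolic median was 47.3 (siControl) and 46.9 (siAATF) with the canonical start and with the nearest peak. The median change turned from −0.0394 to 0.0409 with either of those starts and to 0.474 by −log10 q. The sequence GCGCATGCG was in 0 peaks and GCGCANGC in 13, in each list. Of 252 values of single genes, 250 moved by less than the SD of changes over all genes, 10.3 points, and 2 by more, both the change of IDH1, to 13.3. This count is no measure of stability. For genes with a single promoter peak, the flanks and the choice of start returned the main value, so many values could not move. The limit of 10.3 points was also larger than the main change of every gene except SUCLG1, PDK3, IDH3B, DLST and FH. Smaller changes could still turn in direction, at PDHB, DLAT, PDHX, PDK1, CS, OGDH, SUCLG2, ME2 and ACLY by −log10 q, and at PDP1 or IDH1, which changed by at most 0.213 points, under a −log10 q limit or with ranks among promoter peaks alone.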

Other observations

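Inside the 32 genes but away from their promoters, the siControl list had 5 peaks in 4 genes and the siAATF list 7 in 5 genes. The share over all coding genes was not computed. ME3 held one in an intron, 188 kb from its canonical start, at chr11:86195316-86195721 in the siControl list. Its fold enrichment was 6.42 in siControl and 8.17 in siAATF, with −log10 q of 7.75 and 13.6 and ranks of 58.8 and 88.0, so that in both lists it ranked above the ME3 promoter peak, at 20.7 and 23.4. A second ME3 peak, 75.1 kb from the start, was in the siControl list alone at a rank of 35.3. Those found in the siAATF list alone lay in OGDH, 27.3 kb from its start at a rank of 12.1, in PC, 75.03 kb from its start at a rank of 29.3, and in PDK2, 14.8 kb from its start at a rank of 2.61.

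OGDH held an intronic peak 32.8 kb from its start that ranked at 11.7 in siControl and 50.2 in siAATF. Its −log10 q was 1.99 and 6.27, so the siControl peak was weak in a list whose smallest value was 1.03. The PC and IDH3A peaks found in both lists touched the promoters of LRFN4 and CIB2. With 1 list per condition these differences were not tested.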
